A study of Mus musculus with 24 samples.

Results

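A set of 10 genes related to senescence arrest and p53 was followed in the hepatocytes of old mice on a high-fat diet with and without rapamycin. They were chosen by symbol, and all 10 were found among the 55421 genes of the count and FPKM tables and passed the filter on low counts, among 13847 genes tested. They are the INK4 inhibitors Cdkn2a, Cdkn2b and Cdkn2c, the CIP/KIP inhibitors Cdkn1a and Cdkn1b, Trp53 with Mdm2 and Ccng1, the cyclin Ccnd1 and the lamin Lmnb1. RNA of hepatocytes isolated by liver perfusion was sequenced from 24 male C57BL/6J mice. ND+veh animals (n = 8) stayed on normal diet with vehicle, and HFD+veh animals (n = 7) received vehicle from 4 months of age and a diet with 60% of calories from fat for 9 weeks from 18 months. HFD+eRapa animals (n = 9) had the same switch of diet and received encapsulated rapamycin at 42 ppm from 4 months on, so that the drug preceded the fat. No group with rapamycin on normal diet was analysed here, and the effect of the drug without the fat cannot be told apart from its effect with it.

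Senescence is a lasting arrest of the cell cycle in a cell that stays alive. INK4 proteins bind the cyclin D kinases CDK4 and CDK6, and CIP/KIP proteins bind cyclin-CDK complexes more broadly, so that the retinoblastoma protein stays unphosphorylated and E2F targets stay off. The transcription factor p53 switches on Cdkn1a, whose product is p21, and also Mdm2, whose product marks p53 for degradation and so closes a loop. In many senescent cells Cdkn2a and Cdkn1a are high and Lmnb1, which encodes lamin B1 of the nuclear envelope, is low. In liver, p21 also responds to feeding, to the time of day and to regeneration after injury. Because p53 and the cyclin kinases are regulated largely at the protein level, RNA measures only part of this pathway.

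Cdkn1a and Ccng1 hold a match to the p53 response element, a pair of adjacent half-sites for the p53 tetramer, close to an annotated start site. They are shown because both genes are classical p53 targets of the set. The stretches are RefSeq promoter sequences of GRCm38.p6, written 5′ to 3′ on the strand of the gene, with the response element in capitals.
Cdkn1a, chr17:29090888-29090968, plus strand: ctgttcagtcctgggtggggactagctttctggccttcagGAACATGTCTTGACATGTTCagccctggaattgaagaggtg
Ccng1, chr11:40755422-40755521, minus strand: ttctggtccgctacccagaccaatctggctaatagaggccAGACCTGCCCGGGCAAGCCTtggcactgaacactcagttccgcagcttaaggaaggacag
In each stretch 19 of 20 bases match the p53 consensus. The element begins 51 bases before the first of 2 annotated Cdkn1a starts and 2841 bases before the other, and 195 bases before the Ccng1 start. Only the strand of the gene was searched, which covers the other as well because the element reads alike on each. Such a match, with at most 1 mismatch and no spacer, was found in 29 of 32851 promoter windows (0.0883%), each spanning 250 bases before and 50 after a start. The members had 11 windows for 8 genes, and the windows of Cdkn1a and Ccng1 were the 2 that held it. A match describes the letters and does not show binding in these cells.

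The libraries held 17739252 to 25945134 counts, and every comparison shares 1 edgeR fit over all 24. Sums of 9 hepatocyte markers ran from 56190 to 171528 CPM (read counts scaled to a common library size with TMM factors), so the labelled cell type was abundant in every library, and ND+veh replicate 4 had the lowest sum of its group, at 61153 CPM. Macrophage RNA was present as well, and unevenly. The summed level of 12 macrophage markers was 52.4 to 1569 CPM in ND+veh, 198 to 5886 in HFD+veh and 19.4 to 1230 in HFD+eRapa. HFD+veh replicates 3, 4, 5 and 6 stood apart, with 3771, 2960, 3288 and 5886 CPM against 198, 199 and 1082 in replicates 1, 2 and 7. Tested as below, 10 of 12 macrophage, 9 of 10 endothelial and 10 of 10 stellate cell markers were lower in HFD+eRapa animals than in the HFD+veh group. By the same test 21.1% of all genes were lower and 10.9% higher. Of 5 cholangiocyte markers tested, 2 were lower and 1 was higher. Few lymphocyte and neutrophil markers could be tested, and 2 of 3 and 2 of 4 were lower. Of 9 hepatocyte markers 1 was higher. In such bulk samples fewer cells of a type and less RNA per cell cannot be told apart.

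**Figure D1:**
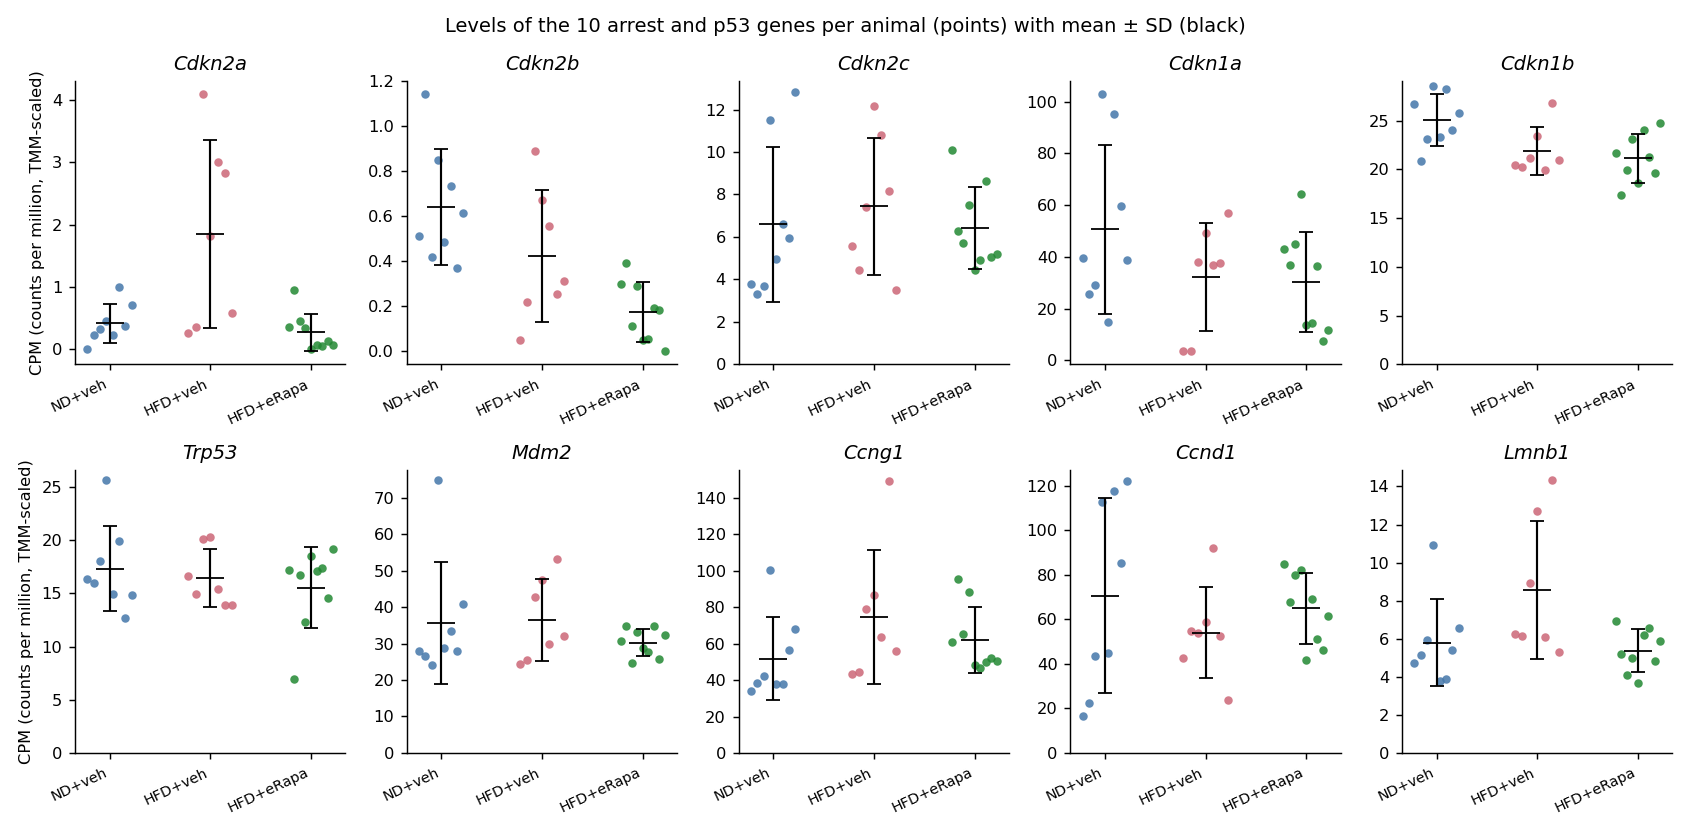
CPM of each gene (vertical axis, TMM-scaled, from 0) in ND+veh (8 animals), HFD+veh (7) and HFD+eRapa (9); each point is an animal, in replicate order from left to right, and black marks the mean ± SD. Cdkn2a was above 1 CPM in HFD+veh replicates 3 to 6, with 1.82 to 4.10 CPM, and in no other animal.

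Few of the 10 genes passed the test. The 3 comparisons were made, named here for what differs: the diet comparison sets HFD+veh against ND+veh, the rapamycin comparison HFD+eRapa against HFD+veh, and the joint comparison HFD+eRapa against ND+veh. In the diet comparison 1 of 10 was called (adjusted p under 0.05), against 25.9% of all genes tested. The one was higher, and 16% of all genes were called higher and 9.86% lower. In the rapamycin comparison 2 of 10 were called, both lower, where 32% of all genes were called, 10.9% higher and 21.1% lower. In the joint comparison 1 of 10 was called, lower, where 13.5% of all genes were called, 6.93% higher and 6.54% lower. These shares are below or near the background, so the set as a whole does not stand out. In no comparison did both groups fail to overlap for any of the 10, whereas this held for 2.44%, 2.59% and 3.37% of all genes in the same order of comparisons. The median log2 fold change of the 10 was -0.02, -0.24 and -0.19, beside 0.05, -0.04 and -0.03 over all genes tested. The HFD+veh animals enter the diet comparison with a plus sign and the rapamycin comparison with a minus sign, so opposite directions in these 2 are not independent.

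**Figure D2:**
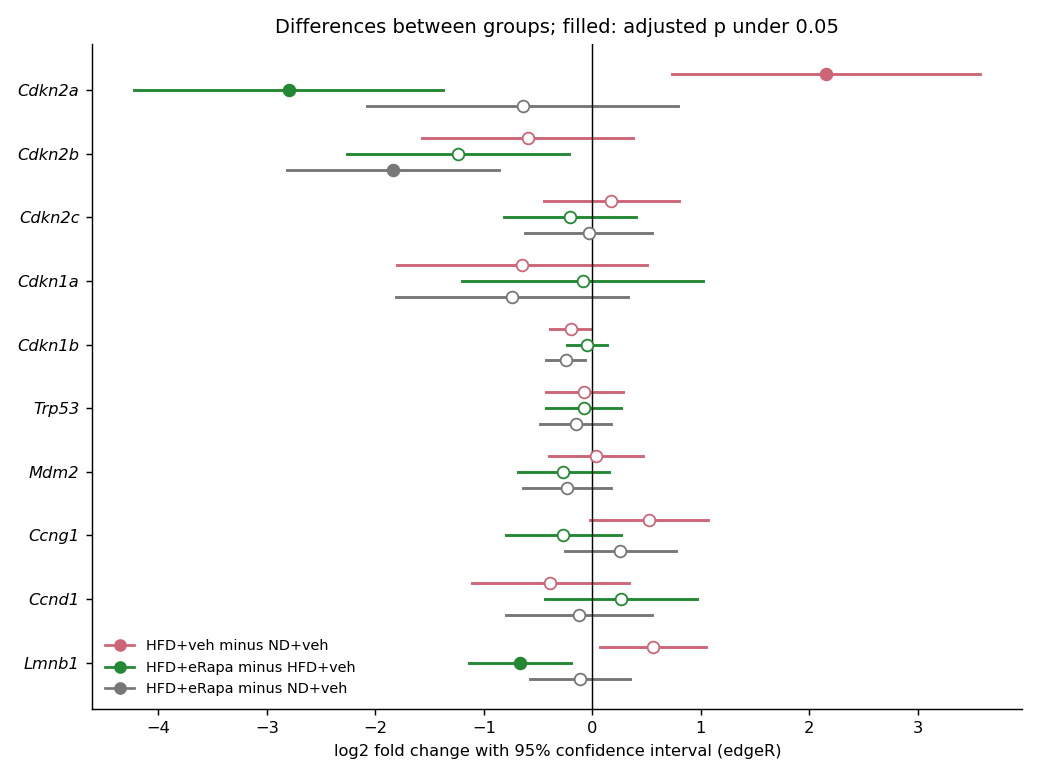
Log2 fold change (horizontal axis) of each gene in 3 comparisons, from edgeR over 24 libraries; points are estimates, lines 95% confidence intervals, and filled points have an adjusted p under 0.05. Filled points are those of Cdkn2a in the diet and rapamycin comparisons, Lmnb1 in the rapamycin comparison and Cdkn2b in the joint comparison.

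Cdkn2a was the member with the largest change. Its median level was 0.348 CPM in ND+veh, 1.82 on the high-fat diet and 0.124 on the diet with rapamycin. The gene (ENSMUSG00000044303.6, GRCm38 chromosome 4, 89274471 to 89294653, minus strand, protein coding) encodes p16INK4a, a CDK4 and CDK6 inhibitor, and p19ARF, which blocks MDM2. Its 2 annotated start sites lie 12427 bases apart, at 89294619 and 89282192, and are not assigned to a product here. The later exons of the 2 products are shared, and counts per gene do not separate them. Levels ran from 0 to 0.995 CPM in ND+veh, from 0.261 to 4.10 in HFD+veh and from 0 to 0.950 in HFD+eRapa. The rise belonged to 4 of the 7 HFD+veh animals, since replicates 3, 4, 5 and 6 had 4.10, 1.82, 3.01 and 2.83 CPM whereas replicates 1, 2 and 7 had 0.261, 0.352 and 0.575, within the range of ND+veh. In counts these were 92, 46, 65 and 67 reads against 5, 8 and 11, while ND+veh had 0 to 19 reads and HFD+eRapa 0 to 17. Where the count was 0, as in ND+veh replicate 1, up to 0.170 CPM is allowed by counting error alone. The log2 fold change was 2.15 in the diet comparison, 4.45-fold (SE 0.688, 95% CI 0.73 to 3.57, edgeR adjusted p = 0.0256), with 6 of 7 HFD+veh animals above the ND+veh median. It was -2.80 in the rapamycin comparison, 6.95-fold lower (SE 0.691, 95% CI -4.22 to -1.37, adjusted p = 0.00451), with 9 of 9 HFD+eRapa animals below the HFD+veh median. The joint comparison gave -0.64 (95% CI -2.08 to 0.79, adjusted p = 0.620). With HFD+eRapa and a single other group fitted alone, Cdkn2a fell under the filter on low counts.

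The 4 HFD+veh animals with high Cdkn2a were the same 4 libraries with the highest macrophage marker sums of the series. The same libraries were also highest in the sums of lymphocyte, neutrophil, endothelial and cholangiocyte markers. For stellate cell markers this did not hold, with 207 CPM in HFD+veh replicate 5 and 350 in ND+veh replicate 6. With a score of 19 immune markers as a covariate the Cdkn2a difference was 0.08 on the log2 scale in the diet comparison (adjusted p = 0.955) and -0.74 in the rapamycin comparison (adjusted p = 0.342). A score of 25 endothelial, stellate cell and cholangiocyte markers as a covariate left 0.98 (adjusted p = 0.127) and -0.41 (adjusted p = 0.753). These scores differ between the groups themselves, so a covariate also takes up part of any group difference. Which cells made the Cdkn2a RNA was not tested. The call in the diet comparison was also lost without HFD+veh replicate 3 (1.78, adjusted p = 0.0765) or replicate 6 (1.97, adjusted p = 0.0647), with limma voom (2.01, adjusted p = 0.0614) and with limma on log2(FPKM + 0.1) (1.76, adjusted p = 0.0641).

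**Figure D3:**
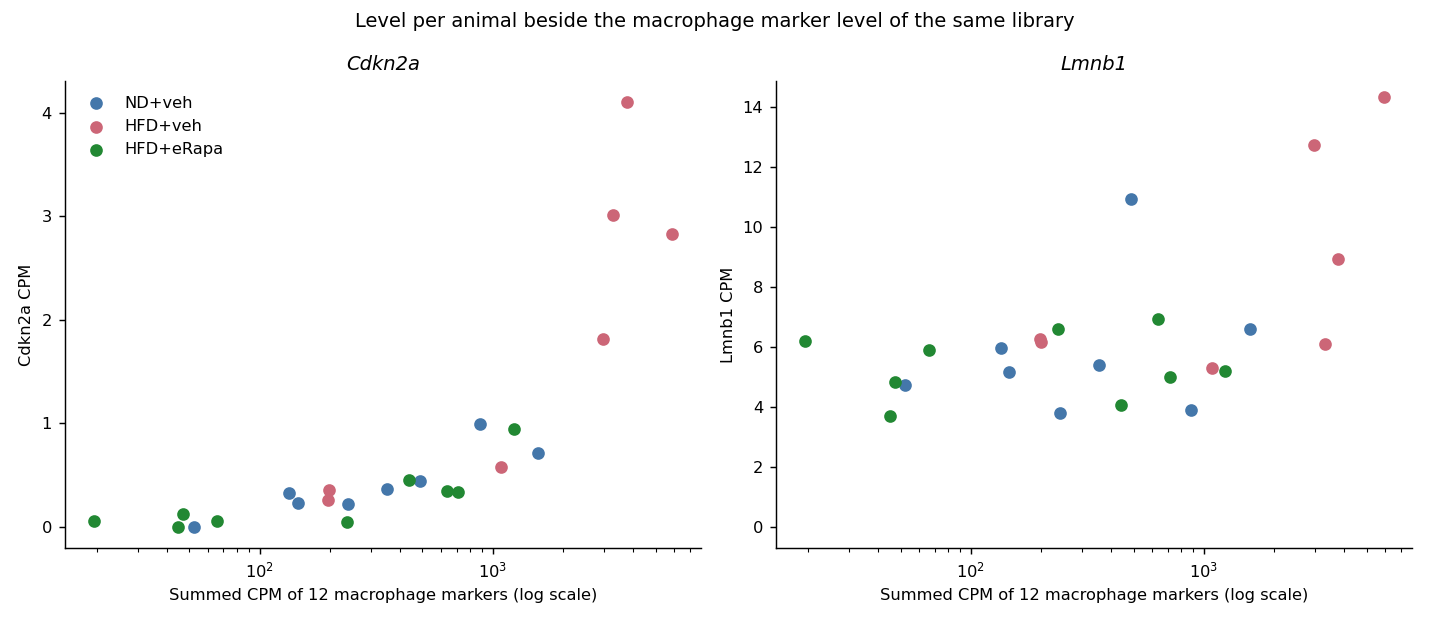
Cdkn2a (left) and Lmnb1 (right) in CPM on the vertical axis against the summed CPM of 12 macrophage markers in the same library (horizontal axis, log scale); each point is an animal, coloured by group. The 4 HFD+veh animals at 2960 to 5886 CPM of macrophage markers held the 4 highest Cdkn2a levels, while Lmnb1 was high in some of them only.

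Cdkn2b behaved differently from its neighbour. It encodes p15INK4b, an inhibitor of the same kinases that TGF-beta induces, and lies at 89306299 to 89311039 on chromosome 4 (minus strand). It was lowest in HFD+eRapa. The lowest, median and highest levels were 0.370, 0.564 and 1.14 CPM in ND+veh, 0.0522, 0.314 and 0.892 in HFD+veh, and 0, 0.186 and 0.391 in HFD+eRapa. Only HFD+eRapa replicate 2, at 0.391 CPM, lay above the lowest ND+veh animal. Counts were small, 7 to 30 reads in ND+veh and 0 to 7 in HFD+eRapa. With these groups fitted alone, the gene fell under the filter on low counts. The log2 fold change in the joint comparison was -1.84, 3.57-fold lower (SE 0.475, 95% CI -2.82 to -0.86, edgeR adjusted p = 0.0102), and 9 of 9 HFD+eRapa animals were below the ND+veh median. With the immune score as a covariate it was -1.91 (adjusted p = 0.00116), and with the endothelial, stellate cell and cholangiocyte score -1.50 (adjusted p = 0.0127). HFD+veh lay between these groups. Neither the diet comparison, at -0.60 (95% CI -1.57 to 0.37, adjusted p = 0.357), nor the rapamycin comparison passed, at -1.24 (95% CI -2.26 to -0.22, adjusted p = 0.0581). The latter was called when HFD+veh replicate 1 or 2, or HFD+eRapa replicate 1, 2 or 4, was left out, with adjusted p of 0.0208 to 0.0495, whereas it was -0.92 (adjusted p = 0.194) without HFD+veh replicate 3. With the immune score as a covariate the rapamycin comparison gave -0.36 (adjusted p = 0.724) and the diet comparison was called (-1.54, adjusted p = 0.0472). The other score gave -0.30 (adjusted p = 0.827) and -1.203 (adjusted p = 0.0616). In the joint comparison 6 of 10 stellate cell markers were also called lower, where 6.54% of all genes were. Their summed levels were 50.9 to 350 CPM in ND+veh and 30.7 to 129 in HFD+eRapa. The part of this in the Cdkn2b difference was not tested beyond the covariate fits.

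Cdkn2c, which encodes p18INK4c, did not pass the test in any comparison. It lies at 109660876 to 109667189 on chromosome 4, minus strand. Its lowest, median and highest levels were 3.32, 5.45 and 12.8 CPM in ND+veh, 3.50, 7.40 and 12.2 in HFD+veh, and 4.46, 5.72 and 10.1 in HFD+eRapa. The 3 ranges nearly coincided. The log2 fold changes were 0.18, -0.21 and -0.03 in the diet, rapamycin and joint comparisons, with 95% intervals of -0.45 to 0.80, -0.82 to 0.40 and -0.62 to 0.55 (edgeR adjusted p = 0.696, 0.620 and 0.963).

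Of the CIP/KIP inhibitors, Cdkn1a varied most among animals and passed the test nowhere. The gene (chromosome 17, 29090976 to 29100727, plus strand) overlaps an antisense transcript over 1046 bases, which had a mean of 6.71 reads per library. Lowest, median and highest levels were 14.6, 39.0 and 103 CPM in ND+veh, 3.44, 37.5 and 57.1 in HFD+veh, and 7.61, 36.4 and 64.4 in HFD+eRapa. The medians were alike, and the spread within a group was wide. In HFD+veh, replicates 1 and 2 had 3.44 and 3.66 CPM while the other 5 had 36.8 to 57.1. In HFD+eRapa, replicates 5, 6, 8 and 9 had 7.61 to 14.6 CPM while the other 5 had 36.4 to 64.4. These low animals were also low in macrophage markers, with 198 and 199 CPM in the HFD+veh animals and 19.4 to 65.9 in the HFD+eRapa animals, but ND+veh replicate 1, with 52.4 CPM of such markers, had 39.4 CPM of Cdkn1a. The log2 fold changes were -0.65 in the diet comparison (95% CI -1.80 to 0.50, edgeR adjusted p = 0.398), -0.09 in the rapamycin comparison (95% CI -1.20 to 1.02, adjusted p = 0.921) and -0.74 in the joint comparison (95% CI -1.81 to 0.33, adjusted p = 0.400). With the immune score as a covariate Cdkn1a was called lower in the diet comparison (-2.17, adjusted p = 0.00644), and with the endothelial, stellate cell and cholangiocyte score as well (-1.52, adjusted p = 0.0228).

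Cdkn1b, which encodes p27 and is largely controlled through degradation of the protein, did not pass the test in the main edgeR fit. Its lowest, median and highest levels were 20.9, 24.9 and 28.5 CPM in ND+veh, 19.95, 21.01 and 26.8 in HFD+veh, and 17.4, 21.3 and 24.8 in HFD+eRapa. The gene lies at 134920401 to 134925513 on chromosome 6, plus strand. Each of the 9 HFD+eRapa animals was below the ND+veh median, and the joint comparison gave -0.25 on the log2 scale (SE 0.0857, 95% CI -0.42 to -0.07), with an edgeR adjusted p of 0.0577. DESeq2 called it (adjusted p = 0.0356), as did limma voom (adjusted p = 0.0324). So did edgeR with only the groups compared (adjusted p = 0.0479), with a replicate block (adjusted p = 0.00939) and in 6 of 24 single removals (lowest adjusted p = 0.0206). It was not called in edgeR without a filter (adjusted p = 0.214), nor with the immune score (adjusted p = 0.0588) or the other score (adjusted p = 0.124) as a covariate. The diet comparison gave -0.20 (95% CI -0.39 to -0.01, adjusted p = 0.108) and the rapamycin comparison -0.05 (95% CI -0.23 to 0.14, adjusted p = 0.715).

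Trp53 RNA had overlapping ranges and similar medians in the 3 groups. The gene encodes p53 and lies at 69580359 to 69591873 on chromosome 11, plus strand. It had 12.7, 16.2 and 25.7 CPM in ND+veh (lowest, median and highest), 13.9, 15.4 and 20.3 in HFD+veh, and 6.93, 17.1 and 19.2 in HFD+eRapa. The 95% intervals of its log2 fold change were -0.43 to 0.28, -0.42 to 0.26 and -0.49 to 0.18 in the diet, rapamycin and joint comparisons, with edgeR adjusted p of 0.775, 0.743 and 0.599.

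The p53 targets within the set did not pass the test either. Mdm2 (chromosome 10, 117688875 to 117710758, minus strand), the ubiquitin ligase for p53, had 24.1, 28.4 and 74.9 CPM in ND+veh, 24.4, 32.0 and 53.3 in HFD+veh, and 24.6, 30.7 and 34.9 in HFD+eRapa. Its lowest levels were thus within 1 CPM of each other in the 3 groups, and the groups differed in how high single animals reached. The log2 fold changes of Mdm2 in the same order were 0.03, -0.27 and -0.23, with 95% intervals of -0.40 to 0.47, -0.69 to 0.15 and -0.64 to 0.17 (edgeR adjusted p = 0.916, 0.327 and 0.499). Ccng1 (chromosome 11, 40748552 to 40755311, minus strand) encodes cyclin G1, which recruits a phosphatase to MDM2. It had 33.8, 40.1 and 100 CPM in ND+veh, 43.1, 63.9 and 149 in HFD+veh, and 46.7, 52.1 and 95.4 in HFD+eRapa. The ND+veh median was exceeded by 7 of 7 animals on the diet alone and 9 of 9 with rapamycin, while the ranges overlapped. The log2 fold change of Ccng1 in the diet comparison was 0.53 (SE 0.264, 95% CI -0.02 to 1.07, edgeR adjusted p = 0.141). It was -0.27 in the rapamycin comparison (95% CI -0.80 to 0.26, adjusted p = 0.450) and 0.26 in the joint comparison (95% CI -0.26 to 0.77, adjusted p = 0.566), where it was called with the endothelial, stellate cell and cholangiocyte score as a covariate (0.64, adjusted p = 0.0118).

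ND+veh replicate 4 was the highest animal of its group for Cdkn1a, Cdkn1b, Trp53, Mdm2, Ccng1 and Lmnb1, with 103, 28.5, 25.7, 74.9, 100 and 10.9 CPM. It was the library of that group with the lowest sum of hepatocyte markers. Without it the diet comparison was called for Ccng1 (0.69, adjusted p = 0.0427) and for Lmnb1 (0.71, adjusted p = 0.0196). Without HFD+veh replicate 6, the highest animal of its group for both, the same differences were 0.22 for Ccng1 (adjusted p = 0.566) and 0.34 for Lmnb1 (adjusted p = 0.307).

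Mdm2 and Ccng1 moved together among the HFD+veh animals. The 4 pairs of Cdkn1a with Mdm2, Ccng1 or Ccnd1 and of Mdm2 with Ccng1 were examined in each of 3 groups, 12 correlations in all, with two-sided exact permutation tests on log2 CPM. In HFD+veh, Mdm2 and Ccng1 had Pearson's r = 0.946 (n = 7, exact permutation p = 0.000794, adjusted over the 12 p = 0.00952) and Spearman's rho = 0.964 (exact permutation p = 0.00278, adjusted p = 0.0333). Without the 2 animals farthest from the Mdm2 median r was 0.942 (n = 5, exact permutation p = 0.0250, adjusted p = 0.300). With each of the 7 animals left out in turn r was 0.930 to 0.964. The adjusted p was then no longer under 0.05 in 5 cases, with a highest value of 0.0890 (exact permutation test). In ND+veh r was 0.856 (n = 8, exact permutation p = 0.0148, adjusted p = 0.0890), with rho = 0.310 (exact permutation p = 0.462, adjusted p = 0.616), and it was -0.192 without replicates 4 and 8, so that this relation rested on those animals. In HFD+eRapa r was 0.377 (n = 9, exact permutation p = 0.315, adjusted p = 0.344) and rho 0.300 (exact permutation p = 0.437, adjusted p = 0.616). The p-values do not test whether the groups differ. HFD+veh replicates 3, 4 and 6 were the highest in both genes and were also high in macrophage markers. They had 42.9, 47.3 and 53.3 CPM of Mdm2, and replicates 1 and 2 had 24.4 and 25.5. Replicate 5, with 3288 CPM of macrophage markers, had 29.9 CPM of Mdm2 and 63.9 of Ccng1, so the match was not complete. Replicate 7, with 1082 CPM of such markers, had 32.0 of Mdm2. The correlation thus spans a gap in Mdm2 between 32.0 and 42.9 CPM. The part of the macrophage marker level in the correlation was not tested.

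The correlations of Cdkn1a are given for ND+veh. In HFD+veh its levels fell into 2 clusters, replicates 1 and 2 against the other 5 animals, and in HFD+eRapa into 4 low and 5 high animals. These clusters were read from the levels and were not tested, and no correlation within a cluster is given. Pooled over the clusters, none of the 6 passed after adjustment, the smallest adjusted p, both in HFD+eRapa, being 0.125 for r and 0.0830 for rho (exact permutation tests). In ND+veh r was 0.619 with Mdm2 (n = 8, exact permutation p = 0.0989, adjusted p = 0.198, and rho = 0.524, exact permutation p = 0.197, adjusted p = 0.459), and 0.408 without replicates 4 and 5. With Ccng1 it was 0.526 (n = 8, exact permutation p = 0.177, adjusted p = 0.236, and rho = 0.262, exact permutation p = 0.536, adjusted p = 0.634), and 0.0422 without the same animals. With Ccnd1 it was 0.600 (n = 8, exact permutation p = 0.117, adjusted p = 0.200, and rho = 0.452, exact permutation p = 0.267, adjusted p = 0.459), and 0.637 without them. None of these 3 passed.

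**Figure D4:**
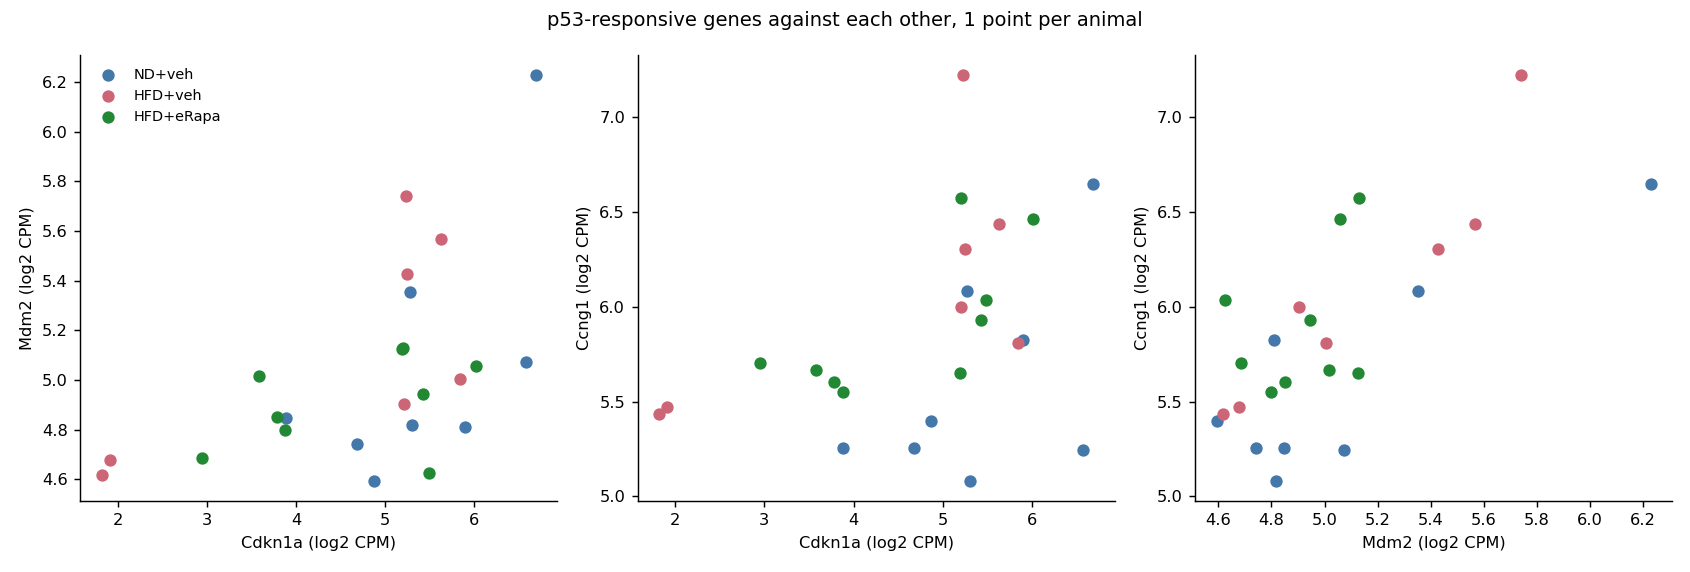
Log2 CPM of Mdm2 against Cdkn1a (left), Ccng1 against Cdkn1a (middle) and Ccng1 against Mdm2 (right); each point is an animal, coloured by group. Mdm2 and Ccng1 rose together in HFD+veh (r = 0.946, n = 7), while 2 HFD+veh animals lie at the low end of Cdkn1a, far from the other 5.

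Ccnd1, which encodes cyclin D1, the partner of CDK4 that drives hepatocytes out of quiescence, differed between animals more than between groups. Its lowest, median and highest levels were 16.7, 65.1 and 122 CPM in ND+veh, 23.7, 53.8 and 92.0 in HFD+veh, and 41.8, 67.9 and 84.7 in HFD+eRapa. Within ND+veh, 3 animals exceeded 100 CPM, and replicates 1 and 2 had 16.7 and 22.6. The log2 fold changes were -0.39 (95% CI -1.11 to 0.34), 0.26 (95% CI -0.44 to 0.97) and -0.12 (95% CI -0.80 to 0.55) in the diet, rapamycin and joint comparisons, with edgeR adjusted p of 0.426, 0.587 and 0.870. The gene (chromosome 7, 144929931 to 144939925, minus strand) overlaps LTO1 on the other strand over 1771 bases. LTO1 had a mean of 232 reads per library, and the use of strand in counting is not given in the sources used here, so some reads may be shared.

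Lmnb1 was called lower in the rapamycin comparison. Its lowest, median and highest levels were 3.80, 5.27 and 10.9 CPM in ND+veh, 5.28, 6.26 and 14.3 in HFD+veh, and 3.69, 5.20 and 6.94 in HFD+eRapa. HFD+veh replicates 3, 4 and 6 had 8.92, 12.7 and 14.3 CPM, above every HFD+eRapa animal, and the other 4 HFD+veh animals had 5.28 to 6.26, inside the HFD+eRapa range. The log2 fold change was -0.67, 1.59-fold lower (SE 0.230, 95% CI -1.14 to -0.19, edgeR adjusted p = 0.0292), with 7 of 9 HFD+eRapa animals below the HFD+veh median. The diet comparison gave 0.56 (SE 0.236, 95% CI 0.07 to 1.04, adjusted p = 0.0817), with 7 of 7 animals over the median of ND+veh, and was called without HFD+veh replicate 7 (0.64, adjusted p = 0.0484). The joint comparison gave -0.11 (95% CI -0.57 to 0.35, adjusted p = 0.818). The 3 highest HFD+veh animals were among the 4 richest in macrophage markers. The call in the rapamycin comparison was lost with the immune score as a covariate (-0.36, adjusted p = 0.461) and with the endothelial, stellate cell and cholangiocyte score (-0.22, adjusted p = 0.720). It was also lost without any 1 of HFD+veh replicates 3, 4 and 6 or HFD+eRapa replicates 3 and 5, with adjusted p of 0.0519 to 0.126, with limma voom (-0.61, adjusted p = 0.0696), with no filter on low counts (-0.61, adjusted p = 0.0554) and on log2(FPKM + 0.1) (-0.64, adjusted p = 0.0685) or log2(FPKM + 1) (-0.46, adjusted p = 0.0681).

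Levels of different genes were compared per length, on the deposited FPKM. In ND+veh the order of mean FPKM was Cdkn1a (30.2 ± 23.2, SD, n = 8), Ccnd1 (24.1 ± 15.5), Ccng1 (14.8 ± 8.60), Mdm2 (13.01 ± 8.79), Trp53 (9.70 ± 3.29), Cdkn1b (9.08 ± 1.92), Cdkn2c (4.30 ± 2.33), Lmnb1 (2.12 ± 1.04), Cdkn2a (0.656 ± 0.494) and Cdkn2b (0.521 ± 0.235). The places from the fourth to the tenth were the same in all 3 groups, and the first 3 genes changed places. Ccng1 led in HFD+veh (20.8 ± 11.1, SD, n = 7), ahead of Cdkn1a (18.4 ± 11.8) and Ccnd1 (18.2 ± 7.23). In HFD+eRapa Ccnd1 led (20.3 ± 4.88, SD, n = 9), ahead of Cdkn1a (16.1 ± 10.3) and Ccng1 (15.7 ± 4.02). The mean ± SD ranges of these 3 overlapped one another in each group. Neighbours with separate mean ± SD ranges were Cdkn1b and Cdkn2c in ND+veh, and Ccng1 and Mdm2, Cdkn1b and Cdkn2c, Cdkn2c and Lmnb1, and Lmnb1 and Cdkn2a in HFD+eRapa, with none in HFD+veh. Even in HFD+veh, Cdkn2a had 2.86 ± 2.32 FPKM, below Trp53 and far below Cdkn1a.

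The rest of the pathway was read from 8 lists of 149 genes, 139 of them tested. Genes called in these lists numbered 38, 44 and 14 in the diet, rapamycin and joint comparisons, against the backgrounds of 25.9%, 32% and 13.5%. By direction, 16%, 10.9% and 6.93% of all genes tested were called higher, and 9.86%, 21.1% and 6.54% lower. Among 30 p53 targets other than the members, 4 were called higher and 2 lower in the diet comparison, 6 lower and none higher in the rapamycin comparison, and 3 lower in the joint comparison. The median log2 fold change of the list was -0.04, -0.23 and -0.27. Pmaip1, the apoptotic activator NOXA, had 0.857 ± 1.18 CPM in ND+veh, 8.11 ± 9.66 in HFD+veh and 0.897 ± 0.903 in HFD+eRapa (mean ± SD over 8, 7 and 9 animals, as for other listed genes below). Its log2 fold change was 3.23 in the diet comparison and -3.17 in the rapamycin comparison (edgeR adjusted p = 0.0133 and 0.00761). Apaf1, the scaffold of the apoptosome, changed by 1.45 and -1.67 (adjusted p = 0.0413 and 0.0136). Bbc3, which encodes PUMA, and Cd82 went the other way in HFD+veh, by -0.70 and -0.50 (adjusted p = 0.0414 and 0.00750). In the joint comparison Bbc3 was also lower (-0.69, adjusted p = 0.0469), as was Gadd45a, a stress-induced growth arrest gene (-1.23, adjusted p = 0.0390). With each of the 24 libraries left out in turn, the diet call was lost in 9 cases for Apaf1, 7 for Bbc3 and 1 for Pmaip1, and the joint call in 16 for Bbc3 and 11 for Gadd45a. Without HFD+veh replicate 6, the library richest in macrophage markers, Apaf1 had 0.95 (adjusted p = 0.188) in the diet comparison and its rapamycin call was lost (adjusted p = 0.0790). Of 30 targets, 24 were not called in the diet comparison and 24 in the rapamycin comparison.

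Upstream of p53, 2 of 16 tested regulators were called higher in the diet comparison, 1 higher and 1 lower in the rapamycin comparison, and 1 higher in the joint comparison. The shares of all genes tested were 16% higher for the diet, 10.9% higher and 21.1% lower for rapamycin, and 6.93% higher for the joint comparison. Chek2, a DNA damage kinase, rose from 1.57 ± 0.564 to 4.00 ± 2.00 CPM (log2 fold change 1.35, edgeR adjusted p = 0.00140) and was lower in HFD+eRapa, at 1.96 ± 0.415 CPM (-1.03, adjusted p = 0.00454). Atr, the kinase of the replication stress response, was higher in HFD+veh (0.55, adjusted p = 0.0206) and in HFD+eRapa (0.62, adjusted p = 0.0101) than in ND+veh. Without HFD+veh replicate 6 the Atr value in the diet comparison was 0.32 (adjusted p = 0.112). Cop1, a ubiquitin ligase for p53, was higher in the rapamycin comparison (0.28, adjusted p = 0.0242), a call lost without HFD+veh replicate 4 (adjusted p = 0.0590). Of the other 3 CDK inhibitors tested, Cdkn1c, which encodes p57, changed with the groups, at 1.11 ± 0.441, 2.52 ± 1.097 and 1.00 ± 0.477 CPM in ND+veh, HFD+veh and HFD+eRapa. Its log2 fold changes were 1.17 in the diet comparison (adjusted p = 0.0165) and -1.32 in the rapamycin comparison (adjusted p = 0.00501), and the diet call was lost without HFD+veh replicate 3 or 4.

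Downstream, the 24 genes of the G1 engine split, with 6 called higher and 2 lower in the diet comparison, 1 higher and 4 lower in the rapamycin comparison, and 2 lower in the joint comparison. The shares of all genes tested were 16% higher and 9.86% lower, then 10.9% higher and 21.1% lower, then 6.54% lower. Rbl1, which encodes the pocket protein p107, and Ccne2, which encodes cyclin E2, were higher in HFD+veh (1.33 and 1.16, edgeR adjusted p = 0.0312 and 0.0162). Without HFD+veh replicate 6 these were 0.67 and 0.62 (adjusted p = 0.228 and 0.103), and Rbl1 lost the call in 7 of 24 single removals. E2f8, an atypical repressor of E2F targets, was lower in HFD+veh (-1.0003, adjusted p = 0.0489) and higher in the rapamycin comparison (1.58, adjusted p = 0.00314), where Ccnd2, which encodes cyclin D2, was lower (-2.09, adjusted p = 0.00738), as was Rbl1 (-1.82, adjusted p = 0.00368), at -1.17 without HFD+veh replicate 6 (adjusted p = 0.0269). The diet call of E2f8 was lost in 15 of 24 single removals, with -0.57 (adjusted p = 0.162) without ND+veh replicate 8. Cdc25a, a phosphatase that activates CDK2, was lower in HFD+veh (-0.45, adjusted p = 0.0188) and in HFD+eRapa (-0.57, adjusted p = 0.00298) than in ND+veh, and E2f2 in HFD+eRapa (-1.56, adjusted p = 0.000425). Of 22 genes that act from S to M phase, 5 were called higher in the diet comparison and 4 lower in the rapamycin comparison, with list medians of 0.93 and -0.96. These counts are near the shares of all genes tested, 16% called higher for the diet and 21.1% lower for rapamycin. Those with the largest changes were subunits of the replicative helicase, Mcm6 (1.55, adjusted p = 0.0237) and Mcm4 (1.201, adjusted p = 0.00414) for the diet and Mcm6 (-1.23, adjusted p = 0.0460) and Mcm3 (-1.02, adjusted p = 0.0135) for rapamycin. Without HFD+veh replicate 6, Mcm6 had 0.93 (adjusted p = 0.137) and Mcm4 0.79 (adjusted p = 0.0154) for the diet, and Mcm6 -0.62 (adjusted p = 0.300) and Mcm3 -0.66 (adjusted p = 0.0830) for rapamycin. The rapamycin call of Mcm6 was lost in 15 of 24 single removals.

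Among 11 other lamina and chromatin genes, Lmna, which encodes lamins A and C, was lower in the diet comparison (-0.61, edgeR adjusted p = 0.0206), at 43.4 ± 12.5 against 66.2 ± 16.5 CPM. Hmgb2, a chromatin protein of dividing cells, was higher (1.31, adjusted p = 0.0487). In the rapamycin comparison Hmgb2 (-1.42, adjusted p = 0.0235) and Lbr, which encodes the lamin B receptor (-0.75, adjusted p = 0.0214), were lower and Sun2, a nuclear envelope bridge, was higher (0.58, adjusted p = 0.0224). Hmgb1 was higher in the joint comparison (0.33, adjusted p = 0.0388), a call lost in 12 of 24 single removals. The diet call of Hmgb2 was lost in 19 of 24. Without HFD+veh replicate 6, Hmgb2 had 0.53 (adjusted p = 0.378) for the diet and -0.65 (adjusted p = 0.235) for rapamycin, and Lbr -0.30 (adjusted p = 0.189). Of these 11 genes, 1 was called higher and 1 lower in the diet comparison, 1 higher and 3 lower in the rapamycin comparison, and 1 higher in the joint comparison. Over all genes tested 25.9%, 32% and 13.5% were called in the same order.

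The senescence-associated secretory phenotype (SASP) comprises the cytokines and proteases that senescent cells release. Of its 27 tested genes, 11 were called higher and none lower in the diet comparison, and 1 higher and 19 lower in the rapamycin comparison, with list medians of 1.42 and -2.29. In the joint comparison 1 was higher and 5 were lower. Of all genes tested, 16% were called higher in the diet comparison, 21.1% lower in the rapamycin comparison and 6.54% lower in the joint comparison. Mmp12, which encodes macrophage elastase, and Spp1, which encodes osteopontin, had the largest rises of the list (5.52 and 5.31, edgeR adjusted p = 0.00237 and 7.89e-05), from 2.03 ± 2.45 to 96.1 ± 150 CPM and from 3.28 ± 2.77 to 133 ± 135 CPM. Mmp13 (-5.09, adjusted p = 0.00313) and Mmp12 (-4.24, adjusted p = 0.00410) had its largest falls with rapamycin, and Igfbp4 was the rise (0.63, adjusted p = 0.0452). The joint comparison gave more Spp1 (2.64, adjusted p = 0.00903) and less Icam1 and Igfbp3 (-1.69 and -1.35, adjusted p = 0.00247 and 0.0456). The calls of Igfbp4 and Igfbp3 were lost in 18 and 12 of 24 single removals. Many of these genes are also made by macrophages, and Spp1 is in addition a cholangiocyte marker. The macrophage marker sums stated above moved in the same comparisons. With the immune score as a covariate the 8 lists held 7 called genes in the diet comparison and 6 in the rapamycin comparison. The share of all genes called in that fit is not given here, so it is not known whether the lower counts are particular to these lists. Among 6 survival and lysosome genes, Glb1, which encodes the lysosomal beta-galactosidase measured in senescence staining, had 13.8 ± 0.821 CPM in ND+veh, 19.01 ± 5.17 in HFD+veh and 8.45 ± 1.52 in HFD+eRapa. It was called in the diet, rapamycin and joint comparisons, at 0.46, -1.17 and -0.71 (adjusted p = 0.0235, 9.06e-06 and 0.000894). Bcl2, which blocks apoptosis, rose and was lower again (2.23 and -2.18, adjusted p = 0.0208 and 0.0135), and its relative Bcl2l2 fell in HFD+veh (-0.39, adjusted p = 0.0267). The diet call of Glb1 was lost in 4 of 24 single removals, and both calls of Bcl2 were lost without HFD+veh replicate 6 (1.66 and -1.61, adjusted p = 0.0869 and 0.0707).

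**Figure D5:**
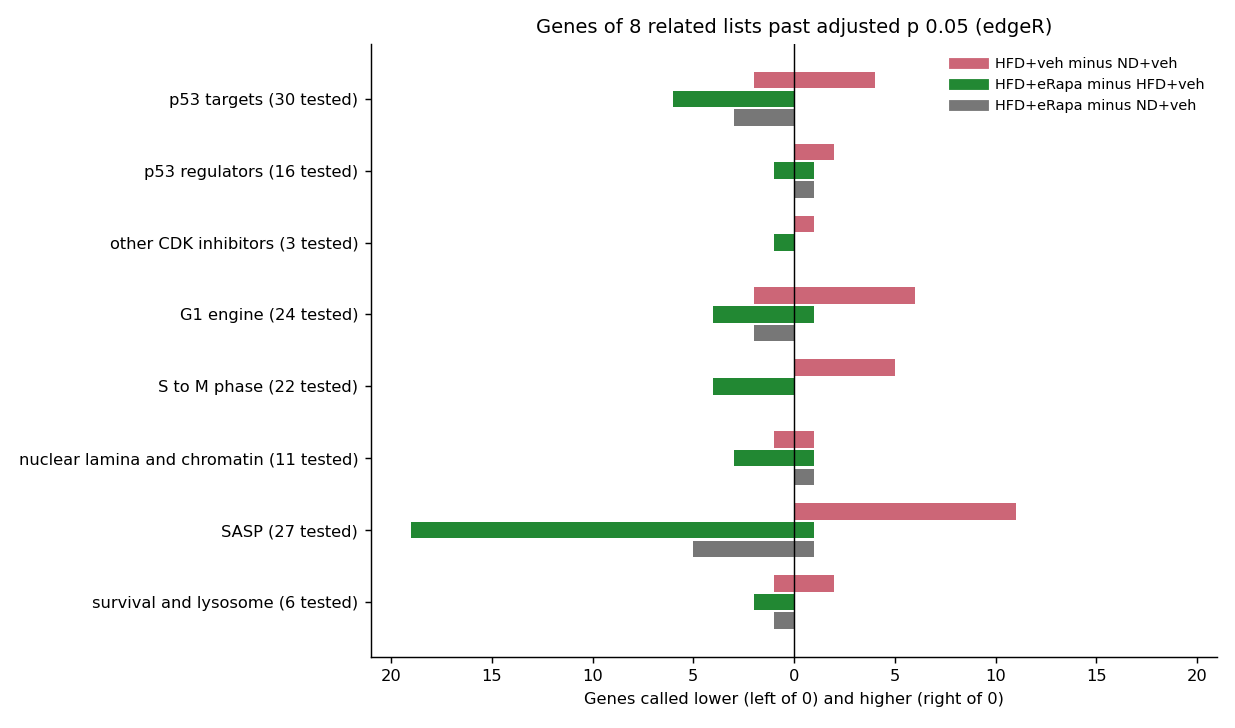
Number of genes called (adjusted p under 0.05, edgeR) in 8 lists related to arrest and p53, lower to the left of 0 and higher to the right, for 3 comparisons; the number tested is given beside each list. The SASP list had 11 higher on the high-fat diet and 19 lower with rapamycin, whereas the 30 p53 targets had 4 higher and 2 lower, then 6 lower. Of all genes tested, 16% were called higher and 9.86% lower on the high-fat diet, and 21.1% lower with rapamycin.

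Over the 24 libraries the genes whose log2 CPM was most like each member's were found by Pearson's r, as a description in which libraries share depth, group and cell makeup. For Cdkn2a they were Prune2 (r = 0.960), Sema6d (0.950) and Syn1 (0.950), and for Cdkn2b Mpzl1 (0.868), Dcbld2 (0.834) and Sparcl1 (0.829). Cdkn2c was most like Kif22 (0.840), Plk1 (0.829) and Cenpa (0.828). Among those nearest to Cdkn1a were Mxra7 (0.851) and Arntl (0.774), and Cdkn1b was most like Sec24b (0.791), Zbtb39 (0.781) and Pvr (0.778). For Trp53 they were Mark2 (0.888), Rnps1 (0.859) and Ap5z1 (0.856), for Mdm2 Tmem43 (0.869), Impact (0.855) and Cd2ap (0.848), and for Ccng1 Cip2a (0.919), Mad2l1 (0.916) and Smc4 (0.912). Ccnd1 was most like Acot2 (0.729), Cdkn2c (0.726) and Cyp4a31 (0.718), and among those nearest to Lmnb1 were Ncapd2 (0.896) and Gas2l3 (0.883). Cdkn2c was the only member among the 3 nearest genes of another.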

How the data were processed

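Hepatocytes were isolated by 2-step collagenase perfusion with Percoll purification, and polyA RNA was sequenced. The authors aligned reads with STAR to mm10 (Gencode annotation) and filtered them with SAMtools 1.1.0. The deposited counts are unnormalized whole numbers for each gene, for which the authors ran HTSeq 0.11.2. The deposited FPKM values (fragments scaled by transcript length and depth) were made by the authors with Cufflinks. The setting for strand is not given in the sources used here. Groups and replicate numbers came from the labels, which give a single batch. Each library was treated as 1 animal, and p-values measure the spread between these samples. No pair of libraries in a group agreed within sampling noise (chi-square per degree of freedom at least 11.3).

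Counts were tested with edgeR 4.0.16 in R 4.3.3 (filterByExpr by group, TMM, robust glmQLFit, glmQLFTest) on 24 libraries with 3 groups and no covariate. P-values were adjusted by Benjamini-Hochberg over 13847 genes, and genes under 0.05 are termed called. SE is the absolute log2 fold change over the square root of F. Log2 CPM used a prior count of 2. Since every member passed the filter, the test planned for members below it was not needed. Correlations used exact permutation tests over all orders of the animals, computed with numpy 2.4.6 and checked on a small case against scipy 1.17.1. Alternatives were DESeq2 1.42.0, limma 3.58.1 (voom, and log2(FPKM + 0.1) or log2(FPKM + 1)), other filters and scaling, marker covariates, a replicate block and removal of each library. The fits were tested on simulated data. A count of 0 is given the limit of 3 counts. Limits cover counting error only, because reads carry no molecular identifiers. Gene positions are from Gencode annotation of GRCm38, the mm10 assembly.

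Named were the 10 members, up to 2 called rises and 2 called falls per list and comparison, and the 3 genes most like each member, predicted genes being skipped. Some of the latter are not reported here. The members, lists and rule were chosen with earlier results of these data known.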

Additional observations from a re-analysis of the deposited data

Results flagged for a closer look

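In each of the 3 groups the highest and lowest animals were compared with the rest of their group by Dixon's test for each of the 10 genes, 30 tests in all, of which chance would mark about 1.5. There were 2 such animals. Mdm2 in ND+veh replicate 4 had a log2 CPM of 6.23 (74.9 CPM), the highest of 8, and the next animal had 5.35. Trp53 in HFD+eRapa replicate 2 had a log2 CPM of 2.81 (6.93 CPM), the lowest of 9, and the next animal had 3.63. Without ND+veh replicate 4 Mdm2 differed by 0.24 on the log2 scale in the diet comparison, and without HFD+eRapa replicate 2 Trp53 differed by 0.0148 in the rapamycin comparison. Neither was called.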

How the results depend on the processing

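Of 1040 values of the members under the alternatives, 932 kept their direction and their side of the threshold, 22 lost and 23 gained a call, and 63 turned direction, none of them a called difference. The call of Cdkn2b between HFD+eRapa and ND+veh held in each alternative in which it was tested, while those of Cdkn2a and Lmnb1 did not. The fit of HFD+eRapa and ND+veh alone was not among them, because Cdkn2b fell under the filter there. Alternatives were chosen with earlier results known, and causes of the changes below were not tested unless stated. The requirement of 10 counts in every library, and the fit of HFD+eRapa with a single other group, tested 8 members, without Cdkn2a and Cdkn2b, by construction, since both fell under the filter. Low counts of both genes (at most 92 and 30 reads) limit their precision.

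Same-numbered libraries did not deviate together throughout. Their correlations were -0.36 to 0.73 for HFD+veh and ND+veh (7 pairs, mean 0.32). They were -0.66 to 0.49 for HFD+eRapa and HFD+veh (7 pairs, mean -0.24) and -0.52 to 0.37 for HFD+eRapa and ND+veh (8 pairs, mean -0.20). The numbers were therefore not taken as pairs. With the replicate number as a block, 0, 0 and 2 members were called in the diet, rapamycin and joint comparisons, and 18 and 8 of the listed genes in the rapamycin and joint comparisons. Cdkn2a then had 2.08 (edgeR adjusted p = 0.0737) and -2.44 (adjusted p = 0.0539), and Lmnb1 -0.62 (adjusted p = 0.0650), while Cdkn1b was called in the joint comparison (-0.28, adjusted p = 0.00939). Directions that turned with the block were those of Cdkn1a in the rapamycin comparison (0.26) and of Cdkn2c (0.17) and Ccnd1 (0.0568) in the joint comparison.

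Members called numbered 0, 1 and 2 with limma voom, 0, 1 and 0 with 10 counts in every library, 0 and 1 in the diet and rapamycin comparisons with FPKM + 0.1, and 1 in the rapamycin comparison with FPKM + 1, with no filter and with only the groups compared. They numbered 2 in the joint comparison with DESeq2, 2 and 0 in the diet and rapamycin comparisons with the immune score, and 0 and 2 in the rapamycin and joint comparisons with the endothelial, stellate cell and cholangiocyte score. Listed genes called in the diet comparison numbered 21 with voom, 23 without a filter, 23 with 10 counts in every library, 19 with only the groups compared, 7 with the immune score, 17 with the other score, 15 with FPKM + 0.1 and 22 with FPKM + 1. In the rapamycin comparison they numbered 28 with voom, 27 with 10 counts, 6 and 4 with the scores and 28 with FPKM + 0.1, and in the joint comparison 9 without a filter, 42 with the endothelial, stellate cell and cholangiocyte score, 9 with FPKM + 0.1 and 9 with FPKM + 1. Shares over all genes under these settings are not given here.

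With the immune score, directions turned in the diet comparison for Cdkn2c (-0.36), Mdm2 (-0.31), Ccng1 (-0.0794), Apaf1 (-0.17), Hmgb2 (-0.14) and Bcl2 (-0.10). They turned in the rapamycin comparison for Cdkn1a (1.42), Cdkn1b (0.00034), Cdkn2c (0.48), Mdm2 (0.16), Ccng1 (0.41), Apaf1 (0.0676), Mcm6 (0.27), Hmgb2 (0.27) and Bcl2 (0.40), and in the joint comparison for Cdkn2c (0.12) and Ccnd1 (0.0788). With the endothelial, stellate cell and cholangiocyte score they turned in the diet comparison for Cdkn2c (-0.16) and Mdm2 (-0.20), and in the rapamycin comparison for Cdkn1a (1.34), Cdkn1b (0.0285), Cdkn2c (0.62), Mdm2 (0.25), Ccng1 (0.48), Pmaip1 (0.16), Apaf1 (0.27), Ccnd2 (0.25), Mcm6 (0.39), Mcm3 (0.0098), Hmgb2 (0.32), Mmp12 (0.38) and Bcl2 (0.61). In the joint comparison they turned for Cdkn2a (0.58), Cdkn2c (0.47), Mdm2 (0.0556), Ccnd1 (0.46) and Lmnb1 (0.12). Without a filter they turned for Mdm2 in the diet comparison (-0.0083) and Cdkn1b in the rapamycin comparison (0.0024). Cdkn1a in the rapamycin comparison had 0.21, 0.10 and 0.0345 with voom, FPKM + 0.1 and FPKM + 1. In the joint comparison Cdkn2c had 0.0807, 0.0884 and 0.0585 and Ccnd1 0.16, 0.0490 and 0.0297 with the same settings.

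With each library left out in turn, members called numbered 0 to 3, 1 to 3 and 1 to 2, and listed genes called 13 to 49 in the diet comparison and 9 to 16 in the joint comparison. The low counts were 13, 22, 24 and 24 without HFD+veh replicate 6, 3 and 4 and ND+veh replicate 1 for the diet comparison, and 9 without ND+veh replicate 6 or any 1 of HFD+eRapa replicates 2, 3, 4, 5, 6 and 8 for the joint comparison. Ranges that spanned 0 were -0.0200 to 0.39 for Cdkn2c and -0.12 to 0.24 for Mdm2 in the diet comparison, -0.31 to 0.11 for Cdkn1a, -0.0785 to 0.0281 for Cdkn1b, -0.12 to 0.0148 for Trp53 and -0.37 to 0.0327 for Ccng1 in the rapamycin comparison, and -0.14 to 0.17 for Cdkn2c, -0.30 to 0.0030 for Mdm2, -0.28 to 0.0343 for Ccnd1 and -0.18 to 0.0721 for Lmnb1 in the joint comparison. Correlations without the 2 farthest animals, pooled over clusters of Cdkn1a, were -0.215 and -0.465 for Cdkn1a with Mdm2 and Ccng1 in HFD+veh, -0.192 for Mdm2 with Ccng1 in ND+veh, and 0.942 in HFD+veh, where single removals gave 0.930 to 0.964. The adjusted p of Mdm2 with Ccng1 in HFD+veh was no longer under 0.05 in 5 of 7 single removals (exact permutation tests). Single removals gave -0.205 to 0.505 for Cdkn1a with Ccnd1 in HFD+veh.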
